A study of Homo sapiens with 24 samples.

Results

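The inhibitor of apoptosis proteins XIAP, BIRC2, BIRC3 and BIRC6 and their antagonists DIABLO, HTRA2 and XAF1 were followed in 2 human osteosarcoma cell lines, SJSA-1 and U2-OS. Members were the probe sets of an Affymetrix PrimeView expression array whose annotation names exactly 1 of these 7 genes. There were 24 such probe sets among 49372 on the array: 5 of XIAP, 5 of BIRC2, 2 of BIRC6, 1 of DIABLO, 4 of HTRA2 and 7 of XAF1. They stand for 6 of the 18132 genes that a probe set names alone. No probe set in the annotation used here names BIRC3 alone, so BIRC3 was not analysed here. Each line was treated for 6 hours with DMSO, the solvent control, or with THZ2 at 25, 100 or 400 nM, and 3 arrays were made per group, 24 in all. THZ2 is a covalent inhibitor of the kinase CDK7, which acts on RNA polymerase II. The labels number the replicates but do not say whether they came from separate cultures, so p-values measure the spread between these arrays, which may be technical.

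Inhibitor of apoptosis proteins carry BIR domains, and several also carry a RING domain that makes them ubiquitin ligases. XIAP binds and blocks caspases directly, whereas the cellular inhibitor BIRC2 acts mainly by ubiquitinating signalling proteins at tumour necrosis factor receptors and by keeping the kinase MAP3K14 low. BIRC6 is a very large member that joins ubiquitin to caspases and to the antagonists. DIABLO, also called Smac, and the protease HTRA2, also called Omi, are mitochondrial proteins that bind BIR domains once released into the cytosol. XAF1 is an interferon-inducible protein that binds XIAP.

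Promoter sequences are shown for BIRC2 and BIRC6, whose probe sets all fell at the highest dose, and for XIAP, whose probe sets disagreed. RefSeq on GRCh38.p14 holds a promoter window for each of the 7 genes, and the 250 bases before the first annotated start are given for these 3, 5′ to 3′ on the plus strand. The windows lie at chr11:102346964-102347213 for BIRC2, at chr2:32356773-32357022 for BIRC6 and at chrX:123859458-123859707 for XIAP. No other annotated gene overlaps them. Capitals mark the GC box GGGCGG, searched with its reverse complement CCGCCC.
BIRC2: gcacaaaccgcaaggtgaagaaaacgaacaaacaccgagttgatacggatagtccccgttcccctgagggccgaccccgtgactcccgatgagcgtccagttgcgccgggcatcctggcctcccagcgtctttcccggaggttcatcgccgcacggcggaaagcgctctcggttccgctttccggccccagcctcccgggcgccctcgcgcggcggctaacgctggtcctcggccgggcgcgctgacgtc
BIRC6: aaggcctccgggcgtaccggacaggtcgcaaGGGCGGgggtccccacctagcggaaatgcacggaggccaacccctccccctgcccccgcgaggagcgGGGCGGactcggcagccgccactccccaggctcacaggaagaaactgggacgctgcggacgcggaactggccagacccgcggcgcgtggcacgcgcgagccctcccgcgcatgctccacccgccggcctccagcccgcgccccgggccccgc
XIAP: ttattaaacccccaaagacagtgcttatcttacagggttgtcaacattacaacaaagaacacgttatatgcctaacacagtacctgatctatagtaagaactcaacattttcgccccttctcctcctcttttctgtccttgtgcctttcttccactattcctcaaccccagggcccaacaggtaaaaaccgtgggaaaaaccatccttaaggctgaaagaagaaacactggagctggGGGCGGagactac
The BIRC6 window held 2 GC boxes, which begin 219 and 152 bases before the start, and the XIAP window held 1, which begins 13 bases before it. A GC box was present in 42.6% of the 35116 RefSeq windows of the same length. None of the 3 windows held the CCAAT box (CCAAT or ATTGG, in 32.0% of all windows), the TATA box (TATAAA or TTTATA, in 10.7%) or the cyclic AMP response element TGACGTCA (in 1.65%). These are matches of letters, and no match says only that the letters are not in the window.

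Deposited values were intensities on a linear scale, with array medians between 23.4 and 25.5 in SJSA-1 and between 33.5 and 37.3 in U2-OS. The arrays fell into 3 sets that appear to have been normalized apart: the 12 SJSA-1 arrays, 9 U2-OS arrays with DMSO, 25 or 100 nM, and the 3 U2-OS arrays with 400 nM. In U2-OS the 400 nM dose cannot be told apart from the set its arrays were normalized in, and levels of the lines are set side by side only. The extraction protocol in the labels names another tissue, so marker lists were read. Of 8 osteoblast markers 7 reached the intensity of 12.7 that served as filter (the 30th percentile of all values), with a summed group mean between 3425 and 5441. Most of that sum was SPARC, with group means from 2690 to 4699, and IBSP did not reach the filter. Of the nervous tissue markers 5 of 7 with a probe set reached the filter, with a sum between 99.2 and 867. They were NEFL, GFAP, SNAP25, SYT1 and MBP, with highest group means of 621, 96.3, 85.8, 36.3 and 30.4. AQP4 and NEUROD6 did not reach it. Of the blood markers 4 of 5 did, with a sum between 107 and 177. They were HBB, CD14, CD3E and PF4, with highest group means of 90.1, 41.6, 40.6 and 29.6, while PTPRC did not reach the filter. All 6 epithelial markers reached it, with a sum between 2937 and 4900, mostly KRT8 and KRT18. The part of these markers in the results was not tested.

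Of the 24 probe sets 19 passed the filter: all of XIAP, BIRC2, BIRC6, DIABLO and HTRA2, and 2 of 7 of XAF1. They were tested with limma on log2(intensity + 16), in 1 fit over 37950 probe sets that name 1 gene, with Benjamini-Hochberg adjustment within each comparison and a threshold of 0.05. In SJSA-1 treated with 25 nM, 4 of the 19 fell, all of them HTRA2, and none rose (1 rose at an unadjusted p under 0.05), where 5.06% of all tested probe sets fell and 1.79% rose. With 100 nM in SJSA-1, 15 fell and 1 rose, where 22.5% of all tested probe sets fell and 25.2% rose. With 400 nM in SJSA-1, 13 fell and none rose, also at an unadjusted p under 0.05, where 23.4% of all fell and 36% rose. In U2-OS treated with 25 nM none of the 19 changed by limma, also at an unadjusted p under 0.05, and over all tested probe sets 0.0369% fell and 0.0264% rose. With 100 nM in U2-OS, 13 fell and none rose (1 rose at an unadjusted p under 0.05), against 18.9% and 17.6% of all. With 400 nM in U2-OS, 9 fell and 4 rose, against 22.7% and 48.4% of all. The members' median log2 changes were -0.56 and -0.54 in SJSA-1 at 100 and 400 nM, and -0.47 and -0.12 in U2-OS, while those of all tested probe sets were 0.061 and 0.085 in SJSA-1, and 0.057 and 0.16 in U2-OS. The 27 poly-A spike-in probe sets were higher by 0.40 and 0.84 (log2) in SJSA-1 at 100 and 400 nM than with DMSO, and by 0.32 and 0.28 in U2-OS. With arrays centred on them the median of all tested probe sets was -0.34 and -0.76 in SJSA-1 and -0.27 and -0.12 in U2-OS. On that scale 15 and 19 of the 19 member probe sets fell in SJSA-1, where 8292 and 33014 of all 37950 did. In U2-OS 12 and 9 fell, where 5395 and 6083 of all did. An array value does not tell fewer cells with a transcript from less transcript per cell.

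**Figure D1:**
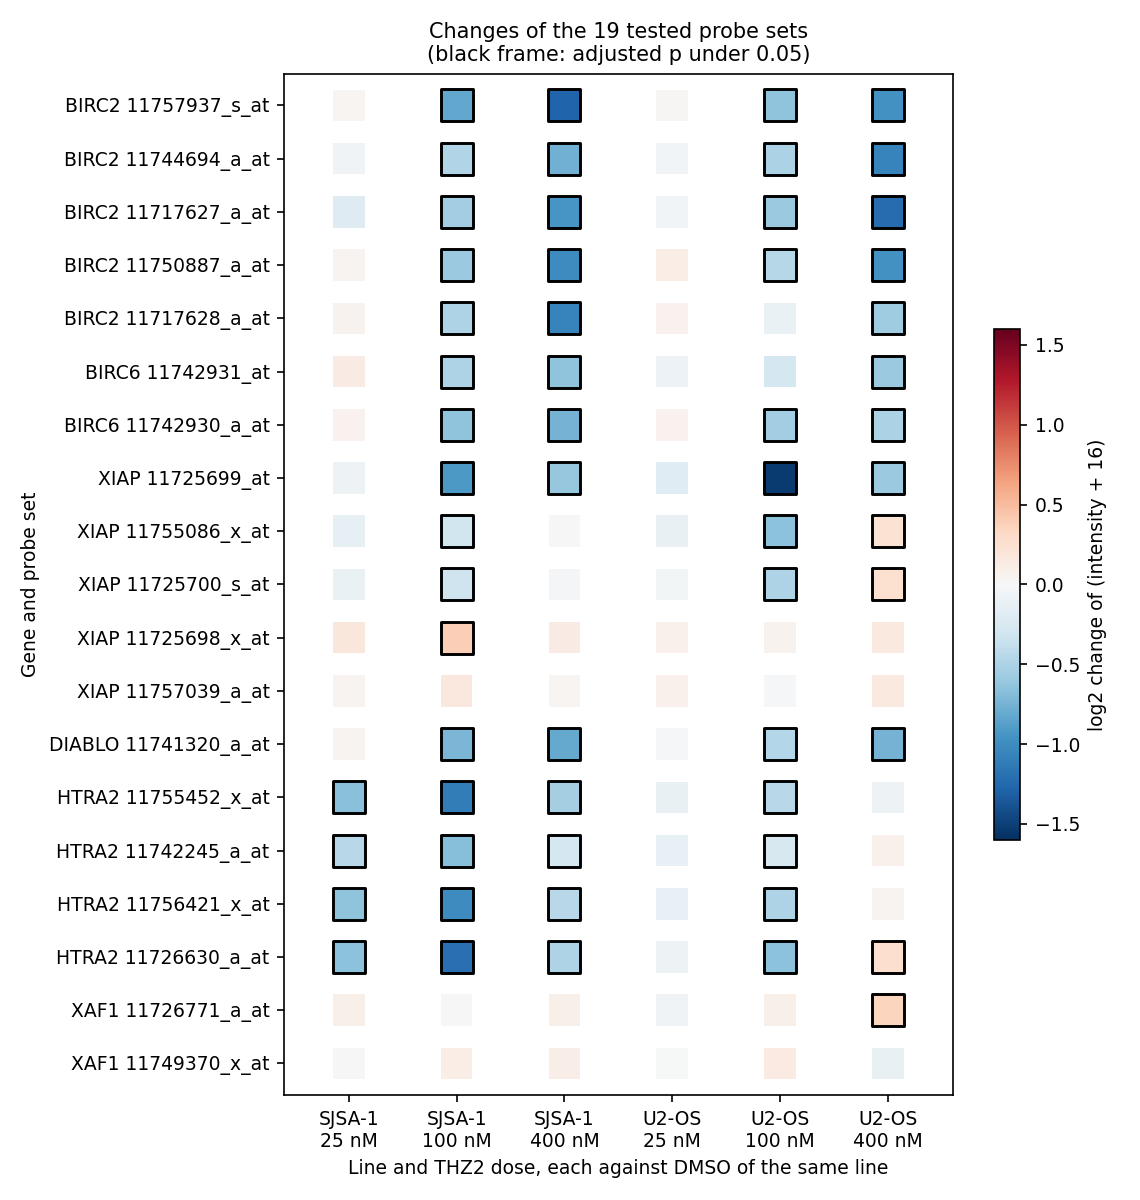
Log2 change of intensity plus 16 for the 19 tested probe sets (down the page, grouped by gene) in each THZ2 dose against DMSO of the same line (across), from the limma fit with 3 arrays per group. Squares with a black frame passed the adjusted p threshold of 0.05: at 400 nM all BIRC2, BIRC6 and DIABLO squares are framed blue (lower) in both lines, while at 25 nM the framed squares are the 4 of HTRA2 in SJSA-1.

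BIRC2 fell with dose in both lines. The brightest of its 5 probe sets (11757937_s_at) read 989, 704 and 760.1 with DMSO, 910.2, 729 and 855 at 25 nM, 359.5, 458 and 545 at 100 nM, and 304, 288 and 391 at 400 nM in SJSA-1. In U2-OS it read 977, 1003 and 954 with DMSO, 969.6, 999 and 1014 at 25 nM, 594, 652 and 611 at 100 nM, and 470.2, 519 and 489.6 at 400 nM. In both lines the arrays with 100 and with 400 nM lay below every DMSO array, while those with 25 nM overlapped them. The log2 change was -0.83 ± 0.12 (SE), adjusted p = 4.16e-06, in SJSA-1 at 100 nM and -1.28 ± 0.12 (SE), adjusted p = 2.38e-09, at 400 nM. In U2-OS it was -0.65 ± 0.12 (SE), adjusted p = 0.000165, at 100 nM and -0.97 ± 0.12 (SE), adjusted p = 1.63e-07, at 400 nM. Every adjusted p here and below is from limma.

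The other 4 BIRC2 probe sets moved the same way. At 400 nM all 5 fell, by log2 changes between -1.28 and -0.77 in SJSA-1 and between -1.23 and -0.57 in U2-OS. At 100 nM all 5 fell in SJSA-1, between -0.83 and -0.48, and 4 of 5 fell in U2-OS. The exception was 11717628_a_at, which read 77.4, 73.6 and 81.7 with 100 nM and 81.5, 90.2 and 81.9 with DMSO in U2-OS (-0.10 ± 0.14 (SE), adjusted p = 0.583). In SJSA-1 the same probe set read 39.9, 35.3 and 60.1 with 400 nM and 144, 88.0 and 104 with DMSO (-1.06 ± 0.14 (SE), adjusted p = 5.27e-07). Over the 12 SJSA-1 arrays, which include the dose groups, Pearson's r between pairs of BIRC2 probe sets ran from 0.93 to 0.99. DMSO replicate 1 of SJSA-1 was the highest of its group in all 5, and without it the 100 nM change of 11717628_a_at was -0.33 and no longer passed the threshold.

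BIRC6, the giant ubiquitin ligase of the family, also fell. Its probe set 11742931_at read 62.7, 58.9 and 50.2 with DMSO, 73.5, 56.5 and 62.2 at 25 nM, 27.9, 45.9 and 35.0 at 100 nM, and 21.0, 29.0 and 44.9 at 400 nM in SJSA-1. In U2-OS it read 79.1, 73.3 and 76.0 with DMSO, 69.2, 70.5 and 71.9 at 25 nM, 55.7, 59.9 and 63.0 at 100 nM, and 38.7, 53.2 and 44.7 at 400 nM. No array with 100 or 400 nM reached a DMSO array of its line. The changes were -0.50 ± 0.13 (SE), adjusted p = 0.00327, in SJSA-1 at 100 nM and -0.65 ± 0.13 (SE), adjusted p = 0.000218, at 400 nM. In U2-OS 400 nM gave -0.59 ± 0.13 (SE), adjusted p = 0.000342, whereas 100 nM gave -0.29 ± 0.13 (SE), adjusted p = 0.0908, which did not pass.

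The other BIRC6 probe set, 11742930_a_at, fell at both doses in both lines. Its log2 changes at 100 and 400 nM were -0.64 and -0.75 in SJSA-1, and -0.55 and -0.51 in U2-OS, with adjusted p of 0.00441 or less. In SJSA-1 it read 22.5, 24.4 and 43.7 with 400 nM and 85.0, 47.2 and 53.8 with DMSO, so 1 DMSO array stood well above the others.

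The 5 XIAP probe sets did not move together, and each is given by itself. The brightest, 11725699_at, read 163, 103 and 122 with DMSO, 146, 90.5 and 128 at 25 nM, 52.0, 58.1 and 70.0 at 100 nM, and 79.3, 65.3 and 89.3 at 400 nM in SJSA-1. In U2-OS it read 203, 211 and 209 with DMSO, 183, 174 and 182 at 25 nM, 62.1, 64.7 and 57.3 at 100 nM, and 131, 146 and 121 at 400 nM. It was lowest at 100 nM in both lines, and the arrays with 100 nM lay below all of those with DMSO or 25 nM. At 100 nM it changed by -0.92 ± 0.14 (SE), adjusted p = 3.15e-06, in SJSA-1 and by -1.53 ± 0.14 (SE), adjusted p = 7.58e-10, in U2-OS. The fall at 400 nM was smaller, with -0.62 ± 0.14 (SE), adjusted p = 0.000436, in SJSA-1 and -0.59 ± 0.14 (SE), adjusted p = 0.000389, in U2-OS. Between 400 and 100 nM this probe set rose in U2-OS (0.94 ± 0.14 (SE), adjusted p = 1.38e-06), while the step in SJSA-1 did not pass the threshold (0.30 ± 0.14 (SE), adjusted p = 0.105).

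Probe set 11755086_x_at, some of whose probes can match other sequences, read 108, 117 and 110.2 with DMSO, 101, 104 and 101 at 25 nM, 60.0, 73.9 and 62.2 at 100 nM, and 129, 136 and 135 at 400 nM in U2-OS. In SJSA-1 it read 92.4, 84.4 and 70.5 with DMSO, 73.5, 68.6 and 77.2 at 25 nM, 55.7, 65.3 and 70.0 at 100 nM, and 77.7, 73.0 and 99.0 at 400 nM. With 400 nM in U2-OS every array lay above every DMSO array, and with 100 nM every array lay below. The U2-OS changes were -0.65 ± 0.10 (SE), adjusted p = 6.3e-06, at 100 nM and 0.23 ± 0.10 (SE), adjusted p = 0.0435, at 400 nM. In SJSA-1 they were -0.30 ± 0.10 (SE), adjusted p = 0.0136, at 100 nM and 0.0088 ± 0.10 (SE), adjusted p = 0.944, at 400 nM.

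Probe set 11725700_s_at, whose probes can be shared between transcripts, showed a like course. It read 36.6, 37.1 and 42.2 with DMSO, 35.0, 35.2 and 40.5 at 25 nM, 21.9, 25.0 and 21.1 at 100 nM, and 51.4, 49.2 and 47.1 at 400 nM in U2-OS. In SJSA-1 it read 67.6, 60.5 and 52.0 with DMSO, 69.1, 43.4 and 52.7 at 25 nM, 44.3, 44.0 and 44.9 at 100 nM, and 55.7, 48.8 and 72.0 at 400 nM. The 400 nM arrays of U2-OS lay above every DMSO array and the 100 nM arrays below, while in SJSA-1 only the 100 nM arrays stood clear of DMSO. Its changes in U2-OS were -0.50 ± 0.11 (SE), adjusted p = 0.000671, at 100 nM and 0.26 ± 0.11 (SE), adjusted p = 0.0365, at 400 nM. In SJSA-1 they were -0.33 ± 0.11 (SE), adjusted p = 0.0153, at 100 nM and -0.030 ± 0.11 (SE), adjusted p = 0.822, at 400 nM. The SJSA-1 falls at 100 nM of both probe sets lost their call in a fit of the SJSA-1 arrays alone, with joint quantile normalization (-0.15 for 11755086_x_at and -0.19 for 11725700_s_at) and without DMSO replicate 1 (-0.23 and -0.26), and that of 11755086_x_at also without replicate 1 at 100 nM (-0.23). The U2-OS rises at 400 nM lost theirs when arrays were centred on their median (0.15 and 0.18), and turned to -0.055 and -0.023 with centring on the spike-ins. That of 11755086_x_at was also lost without DMSO replicate 1 or 3 or any 400 nM array (0.20 to 0.25), and that of 11725700_s_at without DMSO replicate 1 or 2 or 400 nM replicate 1 or 2 (0.23 to 0.26).

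The other 2 XIAP probe sets lay closer to the filter intensity. In SJSA-1 11725698_x_at read 19.6, 17.4 and 18.4 with DMSO, 22.9, 19.03 and 27.7 at 25 nM, 24.8, 30.3 and 33.6 at 100 nM, and 21.7, 20.1 and 23.6 at 400 nM, and it rose at 100 nM (0.40 ± 0.085 (SE), adjusted p = 0.000386) with no array overlapping DMSO, a change that was -0.00099 with centring on the spike-ins. In U2-OS its group means lay between 31.3 with DMSO and 37.1 at 400 nM, no dose passed, and with that centring the changes at 100 and 400 nM were -0.27 and -0.12. Probe set 11757039_a_at stayed below the filter intensity in every SJSA-1 group, with means from 7.47 to 10.4. In U2-OS its means lay between 22.6 and 27.6, and no dose passed in either line. Over the SJSA-1 arrays r between these 2 probe sets was 0.82, while r with the other 3 ran from -0.41 to -0.20. BIRC8, a near copy of XIAP, has 1 probe set, whose highest group mean of 12.6 lay under the filter.

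**Figure D2:**
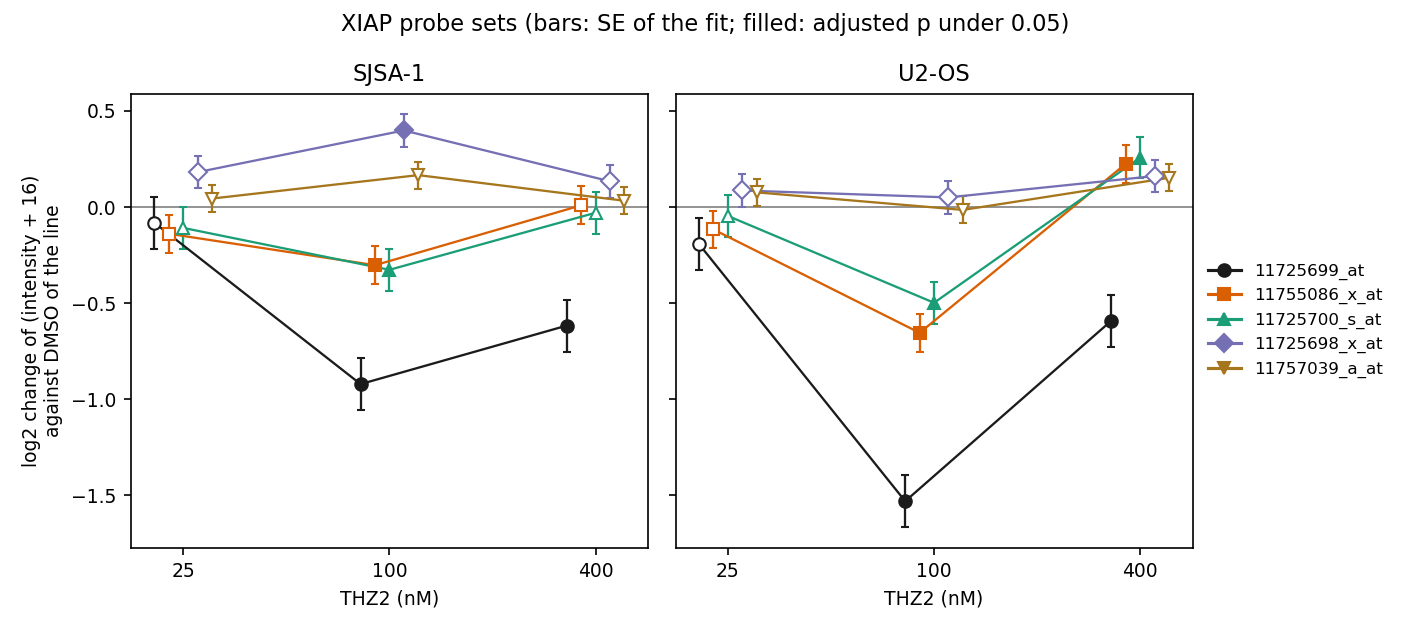
Log2 change of intensity plus 16 against DMSO (vertical axis) for the 5 XIAP probe sets at 25, 100 and 400 nM THZ2 (horizontal axis) in SJSA-1 (left) and U2-OS (right). Bars are the SE of the fit with 3 arrays per group and filled symbols passed the threshold; 11725699_at lies below 0 at 100 and 400 nM in both lines, while 11725698_x_at lies above 0 at each dose, a direction that turned at 100 and 400 nM in both lines with centring on the spike-ins.

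DIABLO, the mitochondrial antagonist of the BIR domains, has 1 probe set, 11741320_a_at. It read 537, 635 and 644 with DMSO, 568, 680.3 and 622 at 25 nM, 340.1, 385 and 347 at 100 nM, and 359.5, 385 and 269 at 400 nM in SJSA-1. In U2-OS it read 814, 804 and 841 with DMSO, 832, 794 and 800.1 at 25 nM, 586, 589 and 593 at 100 nM, and 454, 497 and 482 at 400 nM. The 25 nM arrays overlapped those with DMSO in both lines, and the 100 and 400 nM arrays lay below them all. DIABLO fell at both doses, with a change at 100 nM of -0.73 ± 0.10 (SE), adjusted p = 7.03e-07, in SJSA-1 and -0.47 ± 0.10 (SE), adjusted p = 0.000441, in U2-OS. At 400 nM the change was -0.82 ± 0.10 (SE), adjusted p = 8.16e-08, in SJSA-1 and -0.76 ± 0.10 (SE), adjusted p = 1.56e-07, in U2-OS.

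**Figure D3:**
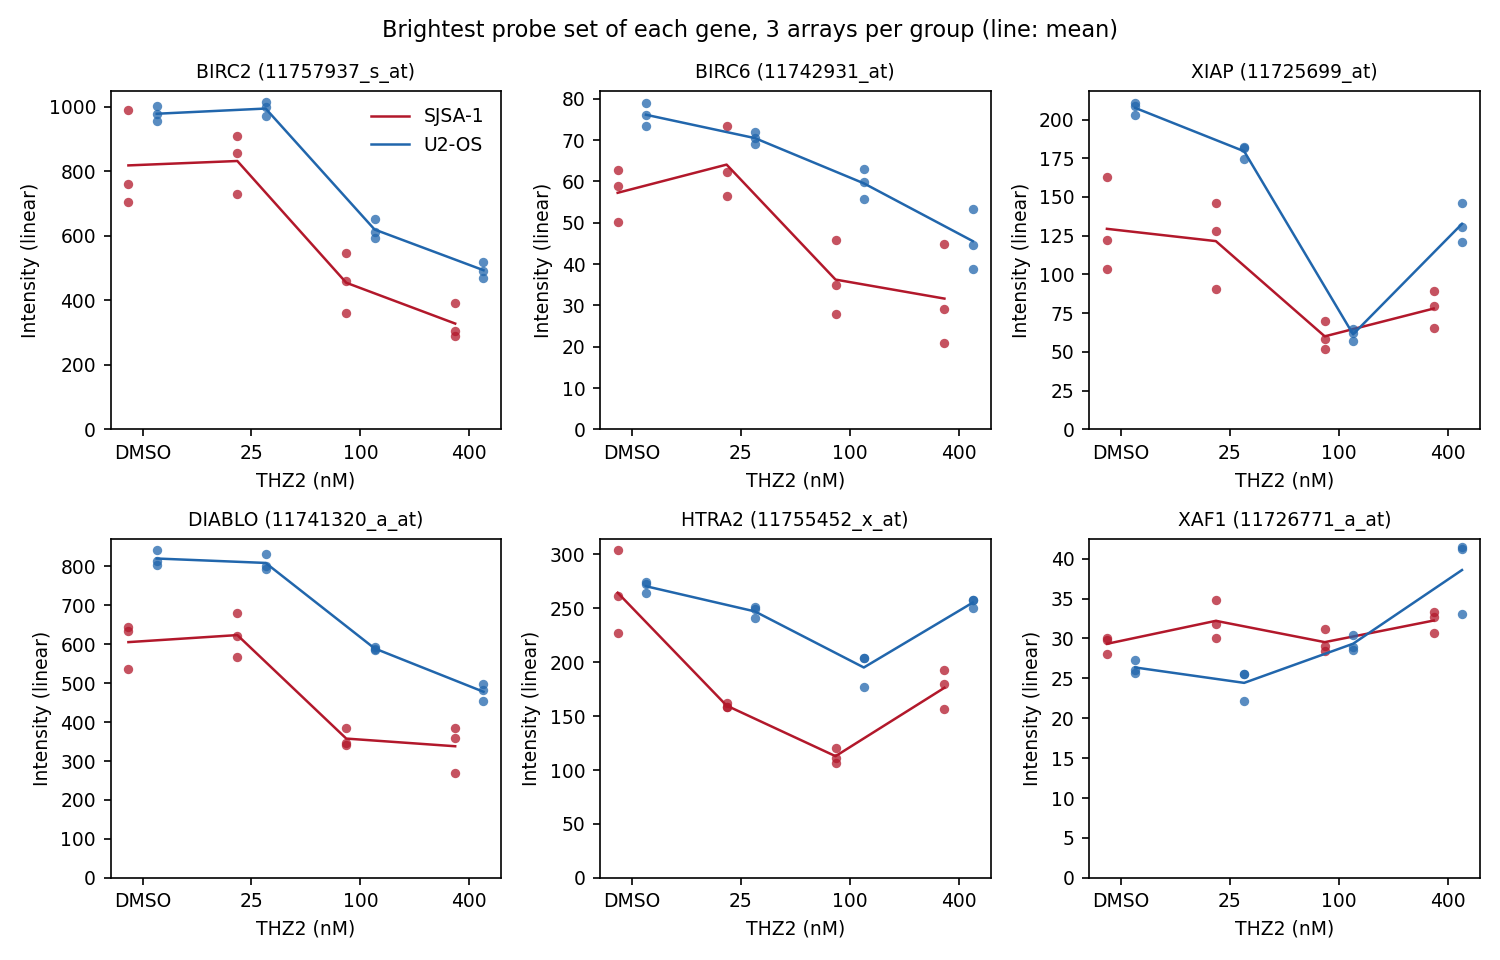
Intensity on a linear scale (vertical axes, from 0) of the brightest probe set of each gene on every array, by THZ2 dose in nM (horizontal axes), with a line through the group means of 3 arrays; SJSA-1 is red and U2-OS blue, and their levels come from sets normalized apart. BIRC2, BIRC6 and DIABLO are lowest at 400 nM in both lines, whereas XIAP and HTRA2 are lowest at 100 nM.

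HTRA2, the mitochondrial serine protease, fell at 25 nM in SJSA-1, where no probe set of another member passed, and was lowest at 100 nM in both lines. Its brightest probe set, 11755452_x_at, read 228, 261 and 304 with DMSO, 159, 162 and 159 at 25 nM, 111, 107 and 120.3 at 100 nM, and 179.8, 193 and 156 at 400 nM in SJSA-1. In U2-OS it read 265, 274 and 273 with DMSO, 249.6, 251 and 241 at 25 nM, 204, 204 and 177 at 100 nM, and 250.4, 258 and 257 at 400 nM. In both lines the arrays of each dose lay below every DMSO array, including those with 25 nM, and the 100 nM arrays were the lowest. The SJSA-1 changes were -0.66 ± 0.090 (SE), adjusted p = 1.75e-05, at 25 nM, -1.11 ± 0.090 (SE), adjusted p = 1.03e-10, at 100 nM and -0.54 ± 0.090 (SE), adjusted p = 1.72e-05, at 400 nM. In U2-OS 100 nM gave -0.44 ± 0.090 (SE), adjusted p = 0.000323, while 25 nM gave -0.12 ± 0.090 (SE), adjusted p = 1, and 400 nM gave -0.079 ± 0.090 (SE), adjusted p = 0.441.

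All 4 HTRA2 probe sets shared this course. At 25 nM in SJSA-1 their changes lay between -0.66 and -0.44, with adjusted p of 0.00470 or less, and at 100 nM between -1.21 and -0.68. At 25 nM in U2-OS the arrays of 3 of the 4 lay below every DMSO array. Their changes, between -0.13 and -0.12, did not pass. Arrays lay below every DMSO array for 8 of the 19 tested member probe sets there, 2 of them of XIAP, and limma called none of the 19. The share of all tested probe sets without such overlap was not counted, so the 8 cannot be set against the whole array. In the step to 400 from 100 nM all 4 rose in SJSA-1, by 0.39 to 0.71, and all 4 rose in U2-OS, by 0.35 to 0.93. The SJSA-1 spike-ins were higher than with DMSO by 0.40 at 100 nM and by 0.84 at 400 nM. Centring on them therefore lowers the SJSA-1 step of all 4, and that of 11742245_a_at was then -0.055. Against DMSO all 4 were still lower at 400 nM in SJSA-1, between -0.54 and -0.29. In U2-OS at 400 nM none passed as lower, although the arrays of 11755452_x_at lay below every DMSO array, and 11726630_a_at rose, with 126, 145 and 142 against 104, 117 and 113 with DMSO (0.27 ± 0.11 (SE), adjusted p = 0.0262). Over the SJSA-1 arrays r between pairs of HTRA2 probe sets ran from 0.89 to 0.99. When arrays were centred on the poly-A spike-ins the 4 falls at 25 nM were as large, between -0.74 and -0.51, but none passed the threshold. The calls of 11742245_a_at were lost at 25 nM in SJSA-1 without 25 nM replicate 3 (-0.37), at 400 nM in SJSA-1 without DMSO replicate 2 (-0.22) or 400 nM replicate 3 (-0.19), and at 100 nM in U2-OS without any DMSO array or 100 nM replicate 1 or 2 (-0.29 to -0.22). The 400 nM rise of 11726630_a_at in U2-OS was lost without DMSO replicate 1 or 400 nM replicate 2 or 3 (0.23 to 0.25) and was -0.0083 with centring on the spike-ins.

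**Figure D4:**
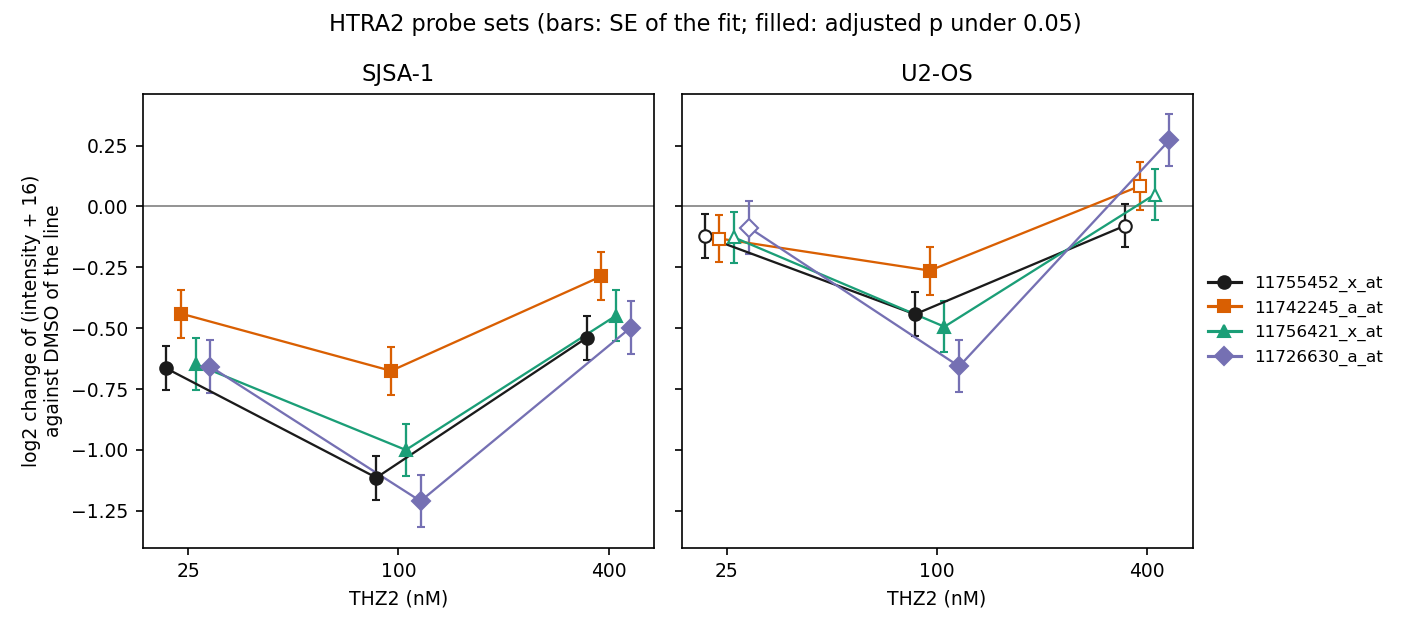
Log2 change of intensity plus 16 against DMSO (vertical axis) for the 4 HTRA2 probe sets at 25, 100 and 400 nM THZ2 (horizontal axis) in SJSA-1 (left) and U2-OS (right). Bars are the SE of the fit with 3 arrays per group and filled symbols passed the threshold; all 4 are lowest at 100 nM in both lines, and in SJSA-1 all 4 lie between -0.66 and -0.44 at 25 nM.

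XAF1 lay near or below the filter. Of its 7 probe sets 5 stayed below the filter in every group and were not tested, with single arrays between 3.25 and 12.7. The brightest, 11726771_a_at, read 27.3, 26.1 and 25.7 with DMSO, 25.6, 25.6 and 22.1 at 25 nM, 28.6, 28.9 and 30.5 at 100 nM, and 41.2, 41.5 and 33.1 at 400 nM in U2-OS. It rose at 400 nM in U2-OS (0.36 ± 0.065 (SE), adjusted p = 2.29e-05), where every array lay above every DMSO array, though with centring on the spike-ins the change was 0.081 and did not pass. In SJSA-1 its group means lay between 29.3 with DMSO and 32.2 at 400 nM, and no dose passed. The other tested probe set, 11749370_x_at, passed at no dose in either line. With 400 nM in U2-OS it averaged 29.0 ± 2.89, against 32.9 ± 0.981 with DMSO (SD, n = 3 each).

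Whether a dose acted differently on the lines was tested in the same fit, as the log2 change in SJSA-1 minus that in U2-OS. At 25 nM 1 of the 19 probe sets passed (4 at an unadjusted p under 0.05), where 0.904% of all did. At 100 nM 6 passed, where 15.5% of all did, and at 400 nM 7 passed, where 46% of all did. With centring on the spike-ins none passed at 100 nM, where 138 of all 37950 tested probe sets did. At 400 nM 6 passed with that centring, where 12966 of all did. Without that centring all 4 HTRA2 probe sets passed at 100 and at 400 nM, and each difference was negative, that is, lower in SJSA-1 relative to its DMSO. For 11755452_x_at the difference was -0.54 ± 0.13 (SE), adjusted p = 0.0374, at 25 nM, -0.67 ± 0.13 (SE), adjusted p = 0.000443, at 100 nM and -0.46 ± 0.13 (SE), adjusted p = 0.00446, at 400 nM. The call at 25 nM was lost with joint quantile normalization, with centring on spike-ins, with a pseudocount of 1, with the replicate number as a block (-0.54), and whenever an array was left out other than SJSA-1 DMSO replicate 1. XIAP 11725699_at differed the other way at 100 nM (0.61 ± 0.19 (SE), adjusted p = 0.0291), with the larger fall in U2-OS. No BIRC6 or DIABLO difference passed at any dose, and of BIRC2 only that of 11717628_a_at at 400 nM did (-0.49 ± 0.20 (SE), adjusted p = 0.0441). For the brightest BIRC2 probe set the difference was -0.18 ± 0.18 (SE), adjusted p = 0.582, at 100 nM and -0.31 ± 0.18 (SE), adjusted p = 0.154, at 400 nM.

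Steps between doses were tested as well. In SJSA-1, 12 of the 19 fell and 1 rose in the step to 100 from 25 nM, where 40.9% of all tested probe sets changed. In the step to 400 from 100 nM 5 fell and 6 rose, where 23.8% of all changed. In U2-OS the counts were 12 lower and 1 higher for the first step, where 40.5% of all changed. For the second they were 7 lower and 9 higher, where 62.4% did. The shares of all count falls and rises together. The U2-OS arrays compared in the second step appear to have been normalized apart. In that second step all 5 BIRC2 probe sets fell in U2-OS and 4 of 5 fell in SJSA-1, by -0.32 and -0.44 for the brightest. DIABLO fell further in U2-OS (-0.29 ± 0.10 (SE), adjusted p = 0.0108), while its SJSA-1 step was -0.092 ± 0.10 (SE), adjusted p = 0.529. Of XIAP 4 of 5 rose in U2-OS, whereas 2 rose and 1 fell in SJSA-1, and these 2 changed by -0.13 and -0.15 with centring on the spike-ins. With that centring 4 member probe sets passed in U2-OS and 6 in SJSA-1 for the second step, where 5388 and 5397 of all 37950 did.

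Other genes of the pathway were read by the brightest probe set of each, from lists chosen with earlier results known. Among all 16175 genes read this way, 24.8% fell and 23.4% rose in SJSA-1 at 100 nM, and 24.5% fell and 40.3% rose at 400 nM. In U2-OS 21.7% fell and 18.1% rose at 100 nM, and 24.7% fell and 48% rose at 400 nM.

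Partners of the cellular inhibitors in tumour necrosis factor receptor signalling had a probe set for 14 of 19 genes. In SJSA-1 9 fell and 2 rose at both 100 and 400 nM, and in U2-OS 8 fell and 3 rose at 100 nM, and 4 fell and 5 rose at 400 nM. The median of the 14 log2 changes was -0.40 and -0.42 in SJSA-1, and -0.31 and 0.14 in U2-OS, against 0.057 and 0.10, and 0.058 and 0.15, over all genes. MAP3K14, the kinase that BIRC2 keeps low, averaged 13.4 ± 5.54 in SJSA-1 400 nM arrays, against 46.6 ± 4.53 with DMSO (-1.11 ± 0.10, adjusted p = 1.12e-09) and 26.5 ± 4.64 in U2-OS 100 nM arrays, against 78.1 ± 2.999 with DMSO (-1.15 ± 0.10, adjusted p = 1e-09). The ubiquitin ligase TRAF6 lay under the filter intensity in SJSA-1 at 100 and 400 nM, at least 3.24-fold lower than with DMSO at 100 nM and at least 3.57-fold lower at 400 nM, with adjusted p of 1.16e-09 and 1.95e-10. In U2-OS TRAF6 changed by -1.07 ± 0.11, adjusted p = 6.18e-09, at 100 nM and by -1.30 ± 0.11, adjusted p = 5.37e-11, at 400 nM.

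TNFAIP3, the deubiquitinase A20, averaged 15.6 ± 7.35 in SJSA-1 400 nM arrays, against 149 ± 15.7 with DMSO (-2.40 ± 0.12, adjusted p = 5.64e-15). At another dose, it averaged 81.5 ± 6.52 in U2-OS 100 nM arrays, against 40.6 ± 2.45 with DMSO (0.78 ± 0.12, adjusted p = 9.31e-06). These doses are not the same, and the difference between the lines was not tested for TNFAIP3. TAB1, an activator of the kinase MAP3K7, fell in SJSA-1 at 100 nM (-1.16), TRAF3 fell in U2-OS at 100 nM (-0.84), and TRAF1 fell in U2-OS at 400 nM (-0.66). TRAF1 is among those counted as lower in SJSA-1 at 100 nM, but both groups lay under the filter there. Within each line and dose the largest rise of the list was that of the linear-chain deubiquitinase OTULIN in SJSA-1 at 100 nM (0.38), of RBCK1 of the linear ubiquitin complex in SJSA-1 at 400 nM (0.64), of TNFAIP3 in U2-OS at 100 nM (0.78) and of TAB3 in U2-OS at 400 nM (0.66). OTULIN fell in SJSA-1 at 400 nM (-0.72).

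Of the caspase and apoptosome genes 5 were tested. In SJSA-1 1 fell at 100 nM, and 1 fell and 2 rose at 400 nM. In U2-OS 1 rose at 100 nM, and 1 fell and 1 rose at 400 nM. CASP2, an initiator caspase, changed by -0.63 and -0.65 in SJSA-1 at 100 and 400 nM, and by -0.85 in U2-OS at 400 nM. CASP6, an executioner caspase, averaged 182 ± 12.6 in U2-OS 400 nM arrays, against 83.5 ± 1.82 with DMSO (0.99 ± 0.087, adjusted p = 2.11e-10), and rose by 0.47 in SJSA-1 at 400 nM. CASP9, the caspase of the apoptosome, rose in U2-OS at 100 nM (0.30).

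Of the other family members 3 of 4 were tested. None passed at 100 nM in either line by limma. At 400 nM BIRC5, also called survivin, averaged 1826 ± 98.3 in U2-OS 400 nM arrays, against 1199 ± 13.7 with DMSO (0.60 ± 0.074, adjusted p = 8.24e-08). This was 1 of 12 BIRC5 probe sets, and in SJSA-1 at 400 nM it did not pass (0.096 ± 0.074, adjusted p = 0.264). Also at 400 nM, NAIP was lower in U2-OS (-0.18) and BIRC7 was higher in SJSA-1 (0.39). Of 5 other antagonists and regulators 2 fell in SJSA-1 at 100 nM, and 4 fell and 1 rose at 400 nM. In U2-OS 1 rose at 100 nM, and 1 fell and 1 rose at 400 nM. AREL1, a ubiquitin ligase for the antagonists, averaged 35.7 ± 8.63 in SJSA-1 400 nM arrays, against 116 ± 13.1 with DMSO (-1.36 ± 0.12, adjusted p = 2.97e-10) and 87.0 ± 12.9 in U2-OS 400 nM arrays, against 167 ± 4.63 with DMSO (-0.84 ± 0.12, adjusted p = 8.08e-07). The deubiquitinase USP19 fell in SJSA-1 at 100 nM (-0.61) and rose in U2-OS at 400 nM (0.41). In SJSA-1 at 400 nM the deubiquitinase USP9X (-0.60) and the translation termination factor GSPT1 (-0.33) fell, and SEPTIN4 was at least 1.49-fold higher (adjusted p = 0.00126) from below the filter.

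For each member the 2 genes with the most similar course were those with the smallest root mean square difference over the 6 log2 changes, by the brightest probe set of each gene. They were E4F1 and HNRNPF for BIRC2, at 0.044 and 0.069, ELMO2 and TRERF1 for BIRC6, at 0.066 and 0.079, and KIF14 and RCAN1 for XIAP, at 0.081 and 0.11. For the antagonists they were RNPS1 and WDR36 for DIABLO, at 0.042 for each, TMEM250 and INTS9 for HTRA2, at 0.095 and 0.11, and KRTAP4-8 and VSIG4 for XAF1, at 0.018 and 0.027. The 6 changes share their DMSO arrays within a line.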

How the data were processed

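Total RNA of 2 osteosarcoma lines was measured on 24 arrays, 3 per group. The authors deposited 1 intensity per probe set and array on a linear scale, and the submitters' processing notes name MAS5 and RMA without versions. Within each of 3 sets of arrays 0.853% to 5.47% of the values were identical between arrays, and at most 0.00405% between sets, so the sets were taken as normalized apart. Of 49372 probe sets 79 were controls, 44994 named 1 gene, 1832 several and 2473 others none. Gene names were those of the platform annotation, and 44969 of the 44994 probe sets had their symbol in a RefSeq table of GRCh38.p14.

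The value log2(intensity + 16) was fitted with limma 3.58.1 in R 4.3.3, with 8 group means, 16 residual degrees of freedom and an intensity trend, for probe sets whose highest group mean reached 12.7. A log2 change of a dim probe set is understated by the 16 added. There were 13 contrasts. The smallest two-sided p of an exact permutation test is 0.1 with 3 arrays a group, so none was run. A dim group's fold was bounded with each array set to at least the filter intensity. Alternatives were other scalings (array medians, the 27 poly-A spike-in probe sets, joint quantiles), filters, pseudocounts of 1 and 64, no trend, each line alone, a replicate block and each array left out. The number of arrays limits the precision. From the lists, up to 3 genes with the largest fall and 1 with the largest rise were named per list at 100 and 400 nM in each line, with all 7 members and their 2 nearest genes. The members, lists and tests were chosen with earlier results of these data known. Figures were drawn with matplotlib.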

Additional observations from a re-analysis of the deposited data

Results flagged for a closer look

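The effect of THZ2 differed between the lines for 14 pairs of probe set and dose. The measure was the difference of log2 changes, SJSA-1 minus U2-OS, in the limma fit. Over all tested probe sets 0.904% differed at 25 nM, 15.5% at 100 nM and 46% at 400 nM. With centring on the spike-ins no member difference passed at 25 or 100 nM, where 0 and 138 of all 37950 tested probe sets did. Of HTRA2, 11755452_x_at differed at 25 nM (-0.54), at 100 nM (-0.67) and at 400 nM (-0.46), 11726630_a_at at 100 nM (-0.55) and at 400 nM (-0.77), 11742245_a_at at 100 nM (-0.41) and at 400 nM (-0.37), and 11756421_x_at at 100 nM (-0.51) and at 400 nM (-0.50). Of XIAP, 11725699_at (0.61) and 11725698_x_at (0.35) differed at 100 nM. At 400 nM BIRC2 11717628_a_at (-0.49) and XAF1 11726771_a_at (-0.27) and 11749370_x_at (0.22) differed. The 7 differences at 400 nM involve the U2-OS arrays that appear to have been normalized apart, and that set and the dose cannot be told apart. Under the alternatives run, the HTRA2 difference of 11726630_a_at at 400 nM kept its call in each.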

How the results depend on the processing

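Counts of called members moved by over 1.5 times in these cases, and the cause was not tested. With centring on the poly-A spike-ins 0 probe sets were called for SJSA-1 at 25 nM in place of 4, 0 for the line difference at 25 nM in place of 1 and at 100 nM in place of 6, 6 for the SJSA-1 step to 400 from 100 nM in place of 11, and 4 for that step in U2-OS in place of 16. That step in SJSA-1 gave 4 with the arrays of the line alone. The line difference at 25 nM gave 0 with joint quantile normalization, with a pseudocount of 1 and with the replicate block, and 2 with a pseudocount of 64. The line difference at 400 nM gave 4 with joint quantile normalization. With single arrays left out, the counts were 3 to 4 for SJSA-1 at 25 nM, 13 to 17 at 100 nM and 12 to 13 at 400 nM, and in U2-OS 0, 12 to 13 and 10 to 14. For the line differences they were 0 to 3, 2 to 7 and 4 to 9, with 2 at 100 nM without SJSA-1 DMSO replicate 3, 3 without SJSA-1 DMSO replicate 2, SJSA-1 100 nM replicate 3, U2-OS DMSO replicates 2 or 3 or U2-OS 100 nM replicates 1 or 3, and 4 at 400 nM without U2-OS DMSO replicate 3 or U2-OS 400 nM replicates 2 or 3. For the steps in SJSA-1 they were 10 to 13 and 6 to 11, with 6 without 100 nM replicate 3 and 7 without 400 nM replicate 1, and in U2-OS 11 to 13 and 14 to 16.

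Changes of sign that involved a call were seen in 15 cases, all with centring on the spike-ins. On that scale XIAP 11725698_x_at changed by -0.00099 in SJSA-1 at 100 nM, by -0.71 at 400 nM and by -0.11 between 100 and 25 nM. XIAP 11755086_x_at and 11757039_a_at changed by -0.83 and -0.81 in SJSA-1 at 400 nM. XAF1 11726771_a_at and 11749370_x_at changed there by -0.75 and -0.74, and the line difference of the last was -0.34. In U2-OS at 400 nM the changes were -0.023 for XIAP 11725700_s_at, -0.055 for XIAP 11755086_x_at and -0.0083 for HTRA2 11726630_a_at. Between 400 and 100 nM in SJSA-1 they were -0.15 for XIAP 11725700_s_at, -0.13 for XIAP 11755086_x_at and -0.055 for HTRA2 11742245_a_at, and between 100 and 25 nM in U2-OS -0.12 for XAF1 11726771_a_at. The spike-in means of the SJSA-1 400 nM arrays were 7.45, 8.40 and 7.04.

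Over all tested probe sets, spike-in centring called 34 in SJSA-1 at 25 nM in place of 2597, 8472 at 100 nM in place of 18094, and in U2-OS 5510 at 100 nM in place of 13834 and 7488 at 400 nM in place of 26960. It called 0 line differences at 25 nM in place of 343 and 138 at 100 nM in place of 5865, and for the steps 6135 in place of 15523 and 5397 in place of 9041 in SJSA-1, and 5147 in place of 15377 and 5388 in place of 23683 in U2-OS. With the arrays of a line alone the counts were 1045 for SJSA-1 at 25 nM, 5359 for its second step and 107 for U2-OS at 25 nM, which gave 24 in the fit over both lines, 3 and 68 with pseudocounts of 1 and 64, and 9 to 17 without single arrays. The line difference at 25 nM gave 208 with joint quantiles, 199 with a pseudocount of 1 and 146 to 609 without single arrays, and SJSA-1 at 25 nM gave 1712 without 25 nM replicate 3. Centring on array medians gave 7841 lower and 14364 higher at 100 nM in SJSA-1, in place of 8530 and 9564. Spike-in centring gave 20 lower and 14 higher at 25 nM (in place of 1919 and 678), 8292 and 180 at 100 nM, and 33014 and 17 at 400 nM (in place of 8897 and 13670) in SJSA-1, and 5395 and 115 at 100 nM (in place of 7154 and 6680), and 6083 and 1405 at 400 nM (in place of 8603 and 18357) in U2-OS. With a replicate block the line difference at 25 nM lost its 1 call, and 245 of 247 changes of members kept direction and call. The labels give same-numbered arrays no shared source, and the correlations of their deviations between groups ran from -0.62 to 0.44, not all over 0.1, so the numbers were not taken as pairs. As a hint from the data only, each array's correlations with the other groups of its line were averaged by replicate number. For 14 of 24 arrays the highest of the 3 means was that of their own number. Within U2-OS the median correlation was 0.10 for the same number and -0.051 for different numbers.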
